A study of Mus musculus with 6 samples.

Results

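The TH17 programme genes described here are 9 genes taken by name: the cytokines Il17a, Il17f and Il21, the receptors Il23r and Il1r1, the transcription factors Rora, Ahr and Stat3, and the signalling inhibitor Socs3. They are 9 of the 27376 gene names on the array, they were read by 13 probes, and the rule that names them uses no measured value, although earlier results of these data were known when they were chosen. RNA came from induced regulatory T (iTreg) cells of 3 miR-31fl/flCD4Cre (cKO) mice and 3 miR-31fl/fl control mice, all on a C57BL/6 background and 6 weeks old, on 3 arrays per group. The sources used here do not say that each array is a separate mouse or culture, so the p-values below measure the spread between these samples, which may be technical. Both groups carry the floxed miR-31 allele, and Cre recombinase, driven from the CD4 promoter and so active in the T-cell lineage, is present only in the cKO. An effect of Cre itself and the loss of miR-31 therefore cannot be told apart. Naive CD4+CD25-Foxp3gfp-CD62Lhi cells from spleen were cultured for 4 days with IL-2 at 40 ng/ml, TGF-β1 at 5 ng/ml and antibodies against CD28 at 2 μg/ml and CD3 at 5 μg/ml, by the labels of the samples, while the study's methods give another IL-2 concentration. No TH17-polarizing culture is among these arrays, so every value below is a level of TH17 genes in cells driven towards the regulatory fate.

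TH17 cells are the CD4+ T cells that make IL-17A and IL-17F, cytokines that recruit neutrophils and defend mucosal surfaces and that take part in autoimmune inflammation. TGF-β with IL-6 or IL-21 directs naive T cells to this fate through JAK kinases and the transcription factor STAT3, while TGF-β with IL-2 favours the regulatory fate marked by FoxP3. RORα is a nuclear receptor that binds the regulatory regions of the IL-17 genes, AHR is a ligand-activated factor that raises cytokine output in TH17 cells, IL-23 and IL-1 sustain them through their receptors, and SOCS3 is induced by STAT3 and shuts down signalling from the IL-6 and IL-23 receptors.

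The deleted microRNA, the members' reference promoters and a few probes are given first as sequence. The mature miR-31-5p, deleted by design in the T cells of the cKO, lies at chr4:88910614-88910635 on the minus strand (RefSeq, GRCm38.p6) and is shown with its seed, bases 2 to 8, in capitals, because the seed is the part through which a microRNA pairs with its targets.
mmu-miR-31-5p: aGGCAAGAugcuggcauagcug
No probe is named for miR-31, so the arrays do not check the deletion.

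Promoter windows of 300 bases, 250 before and 50 after the annotated start, were found in the RefSeq table for 8 of the 9 genes, Ahr being the other. They were searched on both strands for a ROR site, AGGTCA, a STAT site, TTCNNNGAA, and the core recognised by AHR, GCGTG, none of which contains another. The ROR site occurred in the windows of Il17a, Il17f and Il23r and in 16.3% of all 32851 windows. The STAT site occurred in that of Socs3 and in 8.30% of all windows. The AHR core occurred in windows of Il21, Il1r1, Rora and Stat3 and in 32.4% of all windows. A match of letters is not evidence of binding. The stretches around the ROR sites and the STAT site are shown, with the matched letters in capitals, so that the matches can be read in place, and all lie upstream of the start (GRCm38.p6).
Il17a, chr1:20730761-20730814, plus strand: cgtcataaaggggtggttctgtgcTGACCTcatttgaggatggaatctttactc
Il17f, chr1:20784299-20784352, minus strand: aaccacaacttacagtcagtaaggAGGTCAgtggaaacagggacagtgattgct
Il23r, chr6:67491892-67491945, minus strand: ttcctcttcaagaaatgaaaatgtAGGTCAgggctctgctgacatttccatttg
Socs3, chr11:117969488-117969544, minus strand: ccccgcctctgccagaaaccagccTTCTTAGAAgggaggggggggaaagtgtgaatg
In Il17a the ROR site reads on the strand opposite to the gene, and Il23r holds a second one, on the opposite strand, between 229 and 224 bases upstream.

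Values are the log2 of each probe's background-subtracted brightness minus the 75th percentile of its array, so that 0 is the 75th percentile and 1 unit is a doubling. A probe was tested when it was well above background, by the scanner software's own call, on at least 3 of the 6 arrays, which 22281 of 41174 probes were. Each probe binds with its own strength, so the brightest gene of a list is the one with the strongest signal and not necessarily the one with the most transcript. The 75th percentile lay between 987 and 1148 brightness units, and 49.3% to 57.7% of spots on an array were well above background, the fewest on control 1. All 3 cKO arrays and control 1 lay on 1 slide, and control 2 and control 3 on another, so the differences of the member probes are also given within the shared slide, as the cKO mean minus control 1, as are those of other named pathway genes where that value was more than 1.5 times smaller or larger or had the other sign. The array cKO 3 stood apart, with a mean correlation of 0.966 with the other arrays against 0.973 to 0.981 for the rest, and values without it are given where a statement rests on it. In a culture, fewer cells of a type and less RNA per cell cannot be told apart.

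The labelled cell type was checked against its markers. All 6 T-cell markers and all 6 Treg markers were well above background on every array, among them Cd3e, Cd4, Foxp3 and Il2ra. Of the T-cell markers, 4 lay higher on every cKO array than on every control array, with log2 fold changes of 0.74 for Cd3g, 0.66 for Cd4, 0.43 for Cd28 and 0.38 for Cd3d (adjusted p = 0.177, 0.172, 0.210 and 0.203, limma). Without cKO 3 these were 0.47, 0.46, 0.27 and 0.26. Cd3e lay lower on every cKO array (-0.28, adjusted p = 0.177, limma), and Lck overlapped (-0.09, and -0.05 without cKO 3). The summed brightness of this list, whose brightest gene was Cd3d, was 179637, 193549 and 211788 in cKO and 184272, 176050 and 163481 in control. These differences are of the size of several member differences described below, and their part in them was not tested. The Treg markers went both ways, 4 with a higher and 2 with a lower mean in cKO. Foxp3, the factor that defines regulatory T cells, had log2 levels of 3.16, 3.12 and 2.45 in cKO and 3.42, 3.42 and 3.76 in control, all cKO below all control (log2 fold change -0.62, SE 0.22, adjusted p = 0.192, limma), and the fold change was -0.39 without cKO 3. Ctla4, an inhibitory receptor of regulatory and activated T cells, had 0.57, 0.95 and 1.16 in cKO and 0.24, 0.11 and -0.47 in control, all cKO above all control (0.94, SE 0.24, adjusted p = 0.136, limma). Il2ra, Tnfrsf18, Ikzf2 and Ikzf4 overlapped, with log2 fold changes of -0.56, 0.40, 0.51 and 0.06. Without cKO 3 these were -0.22, 0.33, 0.11 and 0.07, without control 3 they were -0.47, 0.20, 0.03 and 0.10, and within the shared slide -0.45, 0.18, -0.02 and 0.14. The Treg list, with Tnfrsf18 the brightest, summed to 180991, 205148 and 187717 in cKO and 202446, 188647 and 147668 in control. Of 4 B-cell markers only Cd79b was tested, and Cd79a, Ms4a1 and Pax5 were not, and the summed brightness of the list was 557, 688 and 1192 in cKO and 658, 638 and 378 in control. Of the 6 myeloid markers on the array only Csf1r was tested, at a log2 level between -4.78 and -3.84 and above background on 4 arrays, and the list summed to 173, 176 and 158 in cKO and 148, 170 and 361 in control. Of 6 listed markers of gamma-delta and innate-like T cells, which can make IL-17 without polarization, only 2, Sox13 and Blk, were found on the array. Both were above background on no array, and the other listed markers could not be read. The CD8 genes Cd8a and Cd8b1 were above background on every array, with overlapping groups and log2 fold changes of -0.86 for Cd8a (adjusted p = 0.254, limma) and -0.18 for Cd8b1, and Eomes overlapped at 0.17. Without cKO 3 these were -0.49, -0.32 and 0.37, and without control 3 they were -0.87, -0.07 and -0.38. The NK receptor gene Ncr1 was above background on 2 cKO arrays and no control array, with every cKO value above every control value, and no fold change is given for it. The summed brightness of the CD8 and NK list was 5248, 5275 and 4990 in cKO and 7596, 5928 and 6398 in control, all cKO below all control. The summed brightness of every marker list is not scaled by array. The 75th percentile itself was 1050, 1048 and 987 on the cKO arrays and 1148, 1090 and 1069 on the control arrays.

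The main result for the TH17 programme was that detection and direction differed from gene to gene. Transcripts of Il17a, Il21, Il23r and Il1r1 were not detected in iTreg cells of either genotype, Il17f was detected on all 6 arrays with no order between the genotypes, and the probes of Rora, Ahr, Stat3 and the first of Socs3 had higher means in cKO, by 1.35 to 2.06 times at the probes detected on all arrays. The third Rora probe, not well above background on control 1, was 1.89 times as high with that array counted at its lowest signal well above background. None of the 9 tested member probes reached an adjusted p of 0.05 (limma with Benjamini-Hochberg adjustment), a threshold passed by 54 of 22281 probes, or 0.242%. At an unadjusted p of 0.05, 5 member probes were higher and 0 lower in cKO, where 11.5% of all tested probes were higher and 11.4% lower. At 5 member probes the lowest cKO array exceeded the highest control array, as at 15.9% of all tested probes, and at 0 the highest cKO array was below the lowest control array, as at 20.7%. Without cKO 3 these counts were 3 by the unadjusted p, with 10.1% of all tested probes, and 5 by the order of the arrays, with 19.4%. With the slide as a term the unadjusted p gave 1 higher member probe, and 1646 of all 22281 tested probes passed in either direction. With normexp background correction and 75th-percentile scaling it gave 2, and 1659 of all tested probes passed in either direction. The median log2 fold change of the 9 member probes was 0.68 against -0.04 for all tested probes. Several probes read 1 gene, so these counts cover 5 genes, and a further 4 genes gave no fold change at all.

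**Figure D1:**
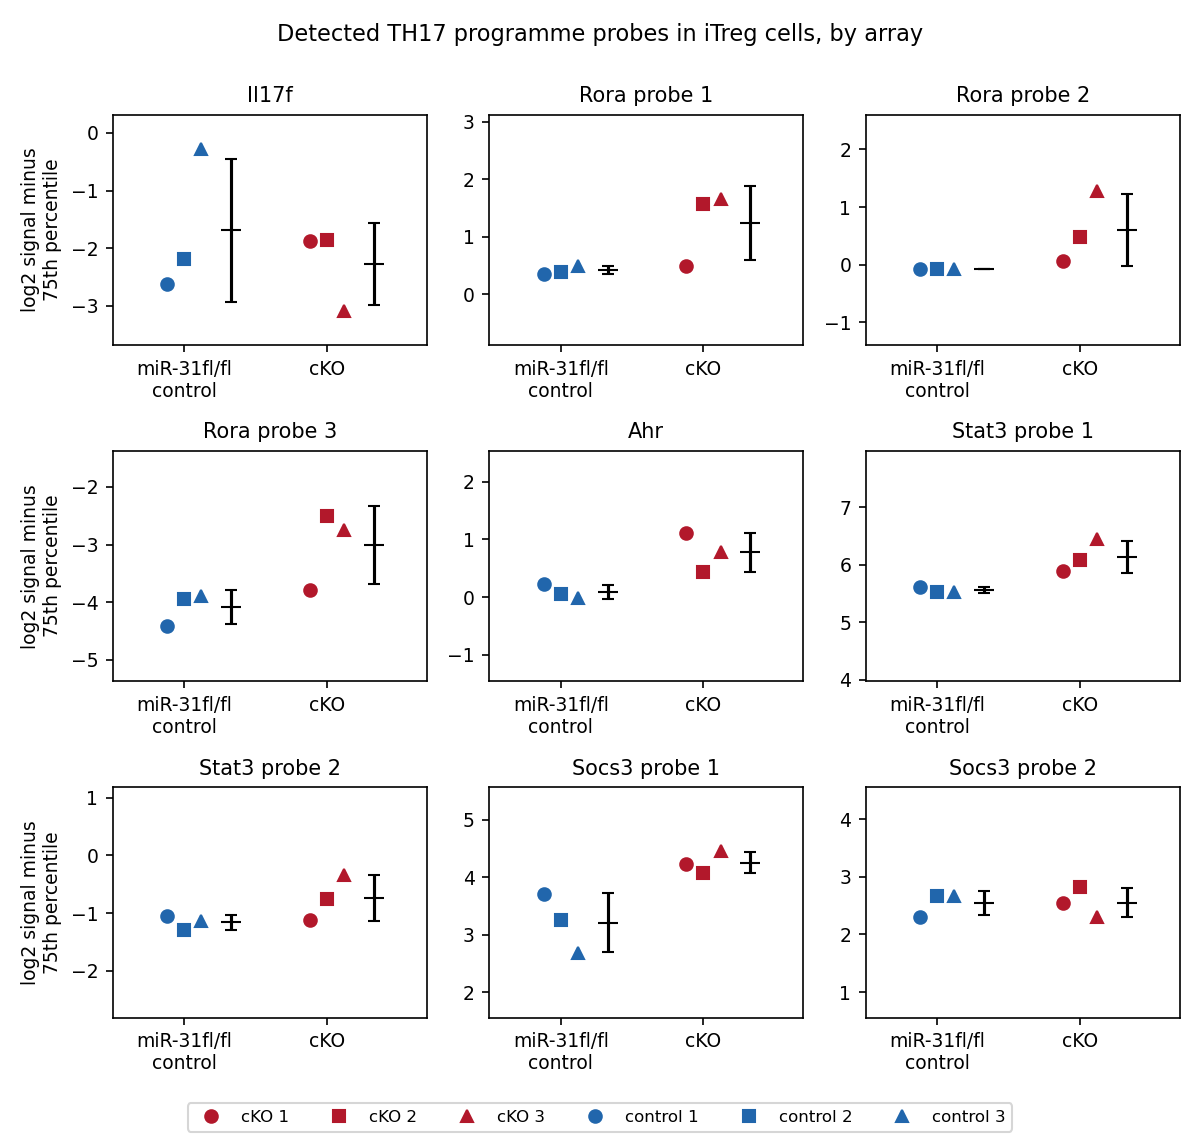
Log2 signal minus the array's 75th percentile (vertical axis, each panel spanning the same range) of the 9 tested TH17 programme probes in 3 control (blue) and 3 cKO (red) arrays, with the mean and SD (n = 3) in black beside each group. The cKO points lie above all control points for Ahr, the first Stat3 and Socs3 probes and Rora probes 2 and 3, while Il17f, Rora probe 1, the second Stat3 probe and the second Socs3 probe overlap.

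Among the cytokines, Il17a, the signature gene of the TH17 lineage, was read by 1 probe (NM_010552, chr1:20723993-20724052 in mm9). Its log2 values were -6.57, -6.05 and -6.28 in cKO and -5.85, -6.79 and -6.50 in control, below the lowest signal called well above background on every array. Il21, the cytokine by which TH17 cells reinforce their own differentiation, had log2 values of -6.67, -6.21 and -6.89 in cKO and -5.95, -6.91 and -6.59 in control. The genotypes overlapped at both probes. The 4 undetected members were all at their highest on control 1, whose lowest signal well above background was also the highest of the 6, at a log2 value of -3.97. The software had put its surrogate for background in place of the measured signal for all 4 of them on 5 arrays and for 3 of 4 on cKO 3, so no fold change is given.

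Il17f, the close relative of Il17a that lies beside it on chromosome 1, was read by 1 probe (NM_145856) whose 60 bases span 1346 bases of the genome, chr1:20768074-20769419 on the minus strand in mm9, and so cross an intron. It is shown because it is the only cytokine probe of the list that gave a signal, and a junction probe reads spliced RNA.
Il17f probe: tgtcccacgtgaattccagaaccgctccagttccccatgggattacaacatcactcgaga
Its log2 levels were -1.88, -1.85 and -3.10 in cKO and -2.61, -2.19 and -0.27 in control, well above background on every array. The brightness itself was 286, 290 and 115 in cKO and 188, 238 and 886 in control. Control 3 was the highest array and cKO 3 the lowest, and the other 4 lay between with cKO above control. The log2 fold change was -0.58 (SE 0.67, 95% interval -2.22 to 1.05, adjusted p = 0.604, limma), which leaves both a higher and a lower level in cKO possible. It was -0.17 without cKO 3, 0.13 without control 3 and 0.34 within the shared slide, so its direction rests on control 3. Over the 6 arrays, the genes with the pattern most like that of Il17f were Esco1 (Pearson r = 0.996), Elk3 (r = 0.988) and AK049577 (r = 0.983), the highest of all tested probes and given as a description.

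**Figure D2:**
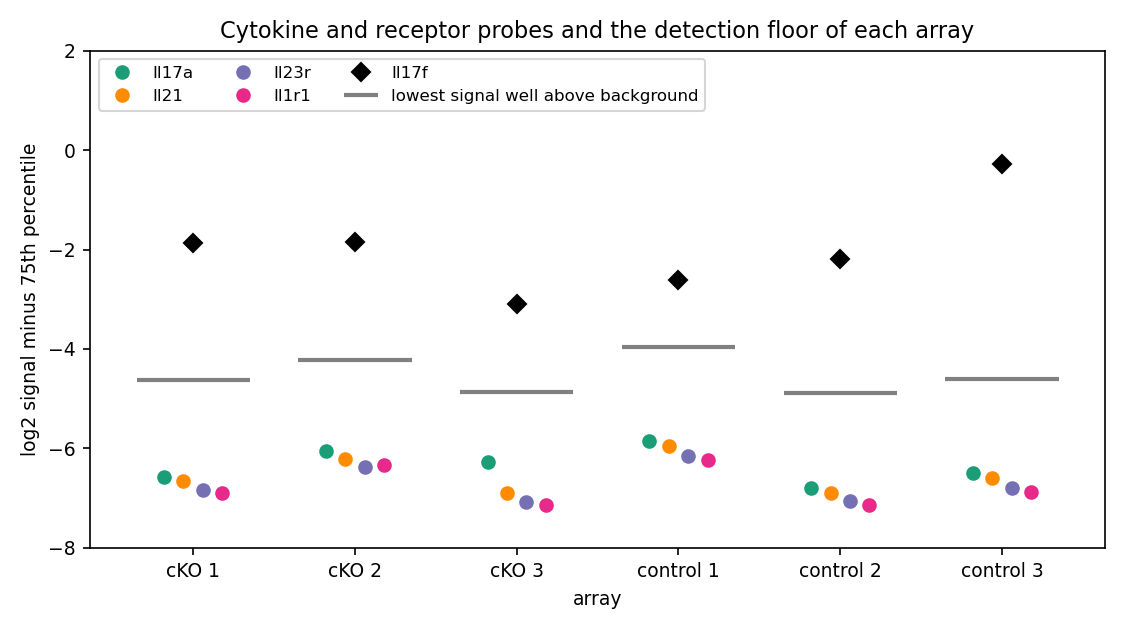
Log2 signal minus the 75th percentile (vertical axis) of the cytokine and receptor probes on each array (horizontal axis), with a gray bar at the lowest signal called well above background on that array. Il17f lies above the bar on all 6 arrays, and Il17a, Il21, Il23r and Il1r1 lie below it on all 6.

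The receptors gave no detectable transcript. Il23r, the specific chain of the IL-23 receptor, was read by 1 probe (NM_144548, chr6:67376658-67381657 in mm9, which also spans an intron), with log2 values of -6.84, -6.37 and -7.08 in cKO and -6.15, -7.07 and -6.79 in control. Il1r1, the signalling receptor for IL-1, had log2 values of -6.89, -6.34 and -7.15 in cKO and -6.23, -7.15 and -6.87 in control. Both lay below the lowest signal well above background of the same array, which ran from -4.90 on control 2 to -3.97 on control 1. The partner chains were detected on every array: Il12rb1, shared by the IL-12 and IL-23 receptors, had log2 levels of 3.68, 3.90 and 3.56 in cKO and 3.52, 3.37 and 3.10 in control, and Il1rap, the accessory chain of the IL-1 receptor, had -2.75, -2.16 and -2.32 in cKO and -2.34, -2.22 and -2.69 in control. The cKO arrays all lay above the control arrays for Il12rb1 (log2 fold change 0.39, adjusted p = 0.213, limma, and 0.19 within the shared slide) and overlapped them for Il1rap (0.01, adjusted p = 0.989, limma, and -0.07 within the shared slide).

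Rora encodes RORα and was read by 3 probes. The first lay at chr9:69226611-69226670 and the second at chr9:69226711-69226770 on the plus strand in mm9, both assigned to NM_013646, with 40 bases between them. Their sequences are shown because they read the same transcript side by side and give 2 readings of it. Both ranked the cKO arrays in the same order.
Rora probe 1: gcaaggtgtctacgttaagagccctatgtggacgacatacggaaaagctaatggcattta
Rora probe 2: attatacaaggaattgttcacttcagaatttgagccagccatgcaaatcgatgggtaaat
At the first probe the log2 levels were 0.49, 1.56 and 1.66 in cKO and 0.36, 0.40 and 0.49 in control. The cKO 1 array sat at the top of the control range and the other two cKO arrays more than 1 unit above it. The log2 fold change was 0.82 (SE 0.32, 95% interval 0.06 to 1.59), a fold of 1.77 (adjusted p = 0.204, limma). At the second probe the levels were 0.06, 0.47 and 1.28 in cKO and -0.07, -0.08 and -0.07 in control, every cKO above every control, with a log2 fold change of 0.68 (SE 0.30, adjusted p = 0.237, limma). The third probe, on ENSMUST00000034766 at chr9:69233105-69233164 in mm9, had -3.79, -2.50 and -2.75 in cKO and -4.42, -3.94 and -3.89 in control, with a log2 fold change of 1.07 (SE 0.36, adjusted p = 0.177, limma). It was well above background on all arrays but control 1, and with that array at its lowest signal well above background the log2 fold change was 0.92. All 3 probes thus had the lowest cKO value in cKO 1, and their correlations over the 6 arrays were 0.80 to 0.96. Within the shared slide the log2 differences were 0.88 and 0.67 at the first 2 probes. At the third, where control 1 is the array not above background, the difference was 0.95 with control 1 at its lowest signal well above background and 1.41 with the value as measured. Without cKO 3 the fold changes of the 3 probes were 0.61, 0.34 and 0.94, so the value of the second probe was over 1.5 times as large with that array as without it.

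Ahr was read by 1 probe (NM_013464, chr12:36182924-36182983 in mm9) printed as 10 spots on each array. The spots of an array had an SD of 0.06 to 0.10 on the log2 scale, against an SD of 0.33 between the cKO arrays and 0.12 between the control arrays. The log2 levels were 1.11, 0.44 and 0.77 in cKO and 0.22, 0.05 and -0.02 in control, so all cKO values exceeded all control values. The log2 fold change was 0.69 (SE 0.19, 95% interval 0.23 to 1.14), a fold of 1.61 (adjusted p = 0.145, limma). It was 0.55 within the shared slide and 0.69 without cKO 3.

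Stat3 was read by 2 probes. The brighter (NM_213659, chr11:100749598-100749657 in mm9), also in 10 spots with an SD of 0.03 to 0.11, had log2 levels of 5.89, 6.09 and 6.44 in cKO and 5.61, 5.53 and 5.53 in control, all cKO above all control. The log2 fold change was 0.58 (SE 0.16, 95% interval 0.20 to 0.96), a fold of 1.50 (adjusted p = 0.145, limma). It was 0.52 within the shared slide and 0.43 without cKO 3. At the other probe (ENSMUST00000103114, chr11:100746462-100746521 in mm9) the levels were -1.12, -0.75 and -0.33 in cKO and -1.05, -1.30 and -1.14 in control, which overlapped at cKO 1, with a log2 fold change of 0.43 (SE 0.21, adjusted p = 0.269, limma) that was 0.23 without cKO 3 and 0.31 within the shared slide. Both probes ordered the cKO arrays alike, with cKO 3 highest and cKO 1 lowest. The genes most like the brighter Stat3 probe over the 6 arrays were Baz2a, Smap1 and Doc2g, each with a Pearson r of 0.998.

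Socs3, the inhibitor induced by STAT3, had 2 probes under its name, and they gave different values. At the brighter probe (NM_007707, chr11:117827480-117827539 on the minus strand in mm9) the log2 levels were 4.23, 4.08 and 4.45 in cKO and 3.71, 3.25 and 2.68 in control. All cKO values exceeded all control values, and the control arrays spread over about 1 unit. The log2 fold change was 1.04 (SE 0.27, 95% interval 0.39 to 1.69), a fold of 2.06 (adjusted p = 0.137, limma), and it was 0.55 within the shared slide, since control 1 was the highest control, and 0.94 without cKO 3. At the other probe (U72673, chr11:117828658-117828717) the levels were 2.54, 2.82 and 2.31 in cKO and 2.31, 2.68 and 2.66 in control, with a log2 fold change of 0.00 (SE 0.18, adjusted p = 0.988, limma). Within the shared slide the difference was 0.24. The array's annotation places that probe on the plus strand, opposite to the first, and the correlation between the 2 probes over the 6 arrays was -0.37. Whether the second probe reads Socs3 mRNA could not be settled here, so the higher Socs3 values in cKO rest on the first probe alone. The genes most like the brighter probe were Rab6a, Gfi1 and AW112010, with a Pearson r of 0.997, 0.995 and 0.994.

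**Figure D3:**
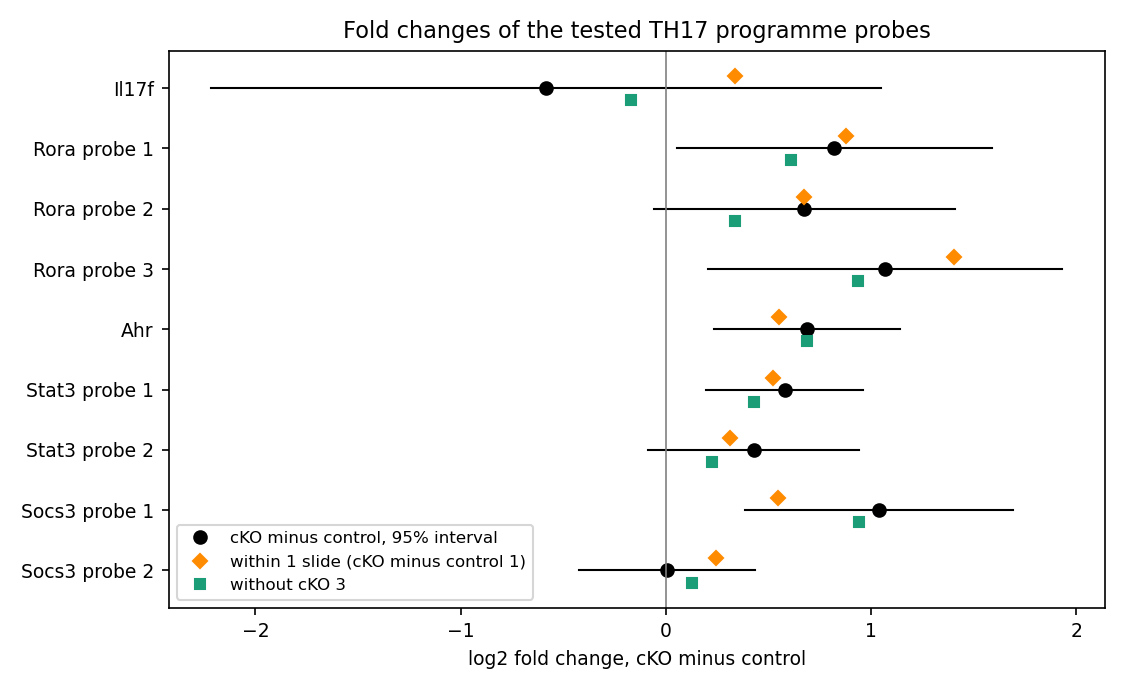
Log2 fold change of cKO over control (horizontal axis) for the 9 tested probes: black points with 95% intervals from limma over 6 arrays, orange diamonds for the cKO mean minus control 1 on the shared slide, and green squares for the fit without cKO 3. All 3 values are above 0 for the Rora, Ahr, Stat3 and Socs3 probes, the second Socs3 probe being nearest 0 at 0.00, and Il17f is the 1 gene whose values lie on both sides. The diamond of Rora probe 3, at 1.41, rests on a control 1 value that was not above background.

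Every cKO array lay above control 1, the control on the same slide, at 6 of the 9 member probes, those of Rora, Ahr, the first of Stat3 and the first of Socs3, against 29.3% of all tested probes. Among all 22281 tested probes, the share with a lower log2 fold change than the member was 95.0%, 92.9% and 97.0% for Rora probes 1 to 3, 96.8% for the first Socs3 probe, 93.2% for Ahr and 91.0% and 86.9% for the first and second Stat3 probes. It was 55.8% for the second Socs3 probe and 7.3% for Il17f. The share for Rora probe 3 rests on the fitted change, which uses a control 1 value that was not above background.

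**Figure D4:**
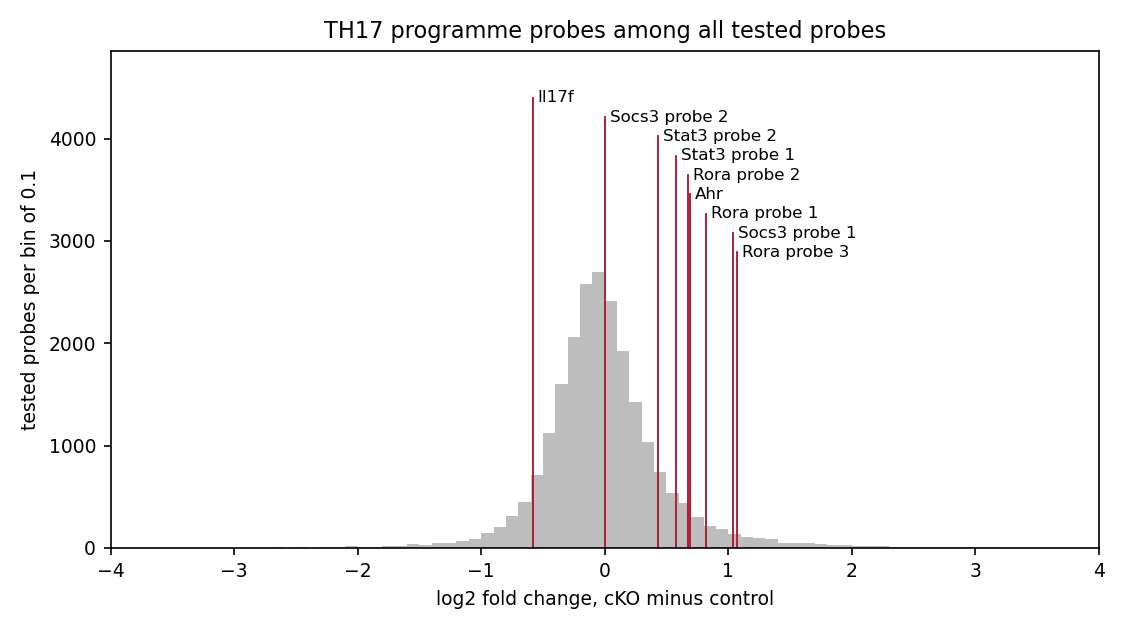
Number of tested probes (vertical axis) by log2 fold change of cKO over control in bins of 0.1 (horizontal axis), with the 9 TH17 programme probes as red lines whose height has no meaning. Probes of Rora, Ahr, Stat3 and the first of Socs3 lie on the upper flank of the distribution, the second Socs3 probe near its centre and Il17f on the lower flank; 4 tested probes lie outside the plotted range.

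Around the 9 genes, a wider list of 43 genes of the same pathway was read at 1 probe per gene, and 39 of them were tested. Of these, 0 were higher and 1 was lower at an adjusted p of 0.05, 13 were higher and 4 lower at an unadjusted p of 0.05, and the median log2 fold change was 0.25. The 1 lower gene, Cyp1a1, entered the test only through the control arrays, and it is not among the genes tested when detection on all arrays is required. Among all tested probes, 11.5% were higher and 11.4% lower at an unadjusted p of 0.05. These shares stand beside the counts by role below, but they cover every tested probe and not 1 brightest probe per gene. With so few genes per role, a count of 1 or 2 is near these shares. The list was chosen with earlier results of these data known, so its counts are a description and not a test of the pathway. The count of higher genes was 8 without cKO 2, 8 without control 2, 7 without control 3 and 1 with the slide as a term. The count of lower genes was 2 without control 1, 2 without control 2 and 1 with the slide as a term.

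Of the other TH17 cytokines and the chemokine, Il22 was above background on no array, and 0 of the 3 tested genes passed an unadjusted p of 0.05. Ccl20, the chemokine that attracts CCR6-bearing cells, had log2 levels of 1.32, 0.81 and -0.15 in cKO and 0.99, 1.02 and 2.43 in control. Csf2, which encodes GM-CSF, had -1.24, 0.21 and -0.83 in cKO and 0.24, 0.37 and -0.77 in control. Il24 had 0.79, 0.80 and -0.27 in cKO and 0.69, 0.16 and -1.14 in control. The groups overlapped for all 3, and Ccl20, like Il17f, was at its highest on control 3 and at its lowest on cKO 3. Their log2 fold changes were -0.82 for Ccl20, -0.57 for Csf2 and 0.54 for Il24. Within the shared slide these were -0.33, -0.86 and -0.25, and without control 3 they were -0.35, -0.93 and 0.02. Ccl20 was -0.42 and Il24 0.89 without cKO 3, and Csf2 was -0.26 without cKO 1.

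Of the 8 receptors, 4 were higher and 0 lower at an unadjusted p of 0.05. Ccr6, the chemokine receptor carried by TH17 cells and some regulatory T cells, had log2 levels of 1.90, 2.88 and 2.51 in cKO and 0.95, 1.48 and 2.03 in control, which overlapped (log2 fold change 0.95, SE 0.35, adjusted p = 0.197, limma, and 1.48 within the shared slide). Il1r2, the decoy receptor for IL-1, had -2.02, -0.90 and -1.87 in cKO and -2.50, -2.25 and -2.37 in control, all cKO above all control (0.77, adjusted p = 0.207, limma), but at 0.42 without cKO 2. Il21r, the receptor for IL-21, had 1.71, 1.79 and 1.69 in cKO and 1.45, 1.27 and 0.90 in control, also without overlap (0.52, adjusted p = 0.161, limma, and 0.28 within the shared slide). Il18r1 overlapped, with a log2 fold change of -0.11 that was 0.17 within the shared slide. The chains through which IL-6 signals, Il6ra and Il6st, had log2 fold changes of -0.31 and 0.11, and -0.14 and 0.18 within the shared slide.

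Of the 8 kinases, STAT3 targets and inhibitors, 2 were higher and 1 lower at an unadjusted p of 0.05. Jak2, the kinase that phosphorylates STAT3 downstream of the IL-23 receptor, had 3.06, 3.52 and 3.96 in cKO and 2.94, 2.86 and 2.91 in control, with cKO 3 highest and cKO 1 lowest of the cKO as at both Stat3 probes (0.61, SE 0.23, adjusted p = 0.199, limma), and the fold change was 0.39 without cKO 3. Bcl3 had higher values without overlap (0.54, adjusted p = 0.172, limma, and 0.27 within the shared slide). Socs1, the inhibitor related to Socs3, had 4.90, 4.83 and 4.27 in cKO and 5.32, 5.29 and 5.15 in control, so that every cKO was below every control where the brighter Socs3 probe was above (-0.59, SE 0.19, adjusted p = 0.170, limma), at -0.39 without cKO 3. Jak1 overlapped, with a log2 fold change of 0.10 that was 0.02 without cKO 3.

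Of the 9 transcription factors listed here as promoting the lineage, a role not tested in these data, 5 were higher and 1 lower at an unadjusted p of 0.05. Batf, required for TH17 differentiation, had 3.18, 3.38 and 3.05 in cKO and 2.77, 2.58 and 2.23 in control (0.68, SE 0.17, adjusted p = 0.136, limma, and 0.43 within the shared slide). In the main fit Fosl2 had the highest fold change of the wider list, at -2.31, -1.79 and -1.19 in cKO and -2.87, -3.09 and -3.82 in control (1.50, SE 0.36, adjusted p = 0.126, limma). With the slide as a term it was 1.10, below Ccr6 at 1.48, and with normexp and quantile scaling 0.92, below Gfi1 at 1.06. Junb and Bhlhe40 had log2 fold changes of 0.46 and 0.73 (adjusted p = 0.179 and 0.166, limma). None of these 4 overlapped between the groups. The lower gene was Runx1, with 0.78, 0.71 and 0.61 in cKO and 1.09, 1.14 and 1.52 in control. All its cKO values lay below all control values (-0.55, SE 0.15, adjusted p = 0.141, limma). Batf, Fosl2 and Junb are AP-1 factors, and Bhlhe40 is a helix-loop-helix repressor and activator.

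Ahr had higher values in cKO, and whether this had an effect on its targets was not tested. Of the 4 tested AHR partners and targets, 1 was higher and 1 lower at an unadjusted p of 0.05. Cyp1a1, the classical AHR target, was well above background on all 3 control arrays and on no cKO array, with log2 values of -5.17, -4.83 and -5.12 in cKO and -3.70, -3.97 and -3.69 in control. It was 1.73-fold lower in cKO when each cKO array was counted at the lowest signal it called well above background for any probe. That signal is not the detection limit of this probe, so the value is not a firm minimum. The probe entered the test only through its control arrays. The adjusted p of 0.0495 (limma) belongs to the fitted change, which uses cKO values below that signal, and not to the 1.73-fold value. The call is at the edge of the threshold, and normexp background correction with 75th-percentile scaling turned the fitted change to 0.26. It was no longer called under 17 of 19 alternatives, among them the slide as a term (adjusted p = 0.292, limma) and each array left out (adjusted p from 0.0586 to 0.185, limma). Tiparp, another AHR target, had 1.44, 1.74 and 2.27 in cKO and 1.16, 1.07 and 0.82 in control (log2 fold change 0.80, SE 0.23, adjusted p = 0.153, limma), all cKO above all control. Ahrr, the AHR repressor and also a target, overlapped, with a log2 fold change of -0.25 that was -0.39 within the shared slide, -0.51 without cKO 1 and -0.07 without cKO 3. Cyp1b1 was above background on control 3 alone and Nqo1 on 1 array of each genotype.

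Of the 7 tested factors that oppose the lineage, 1 was higher and 1 lower at an unadjusted p of 0.05. Gfi1, a repressor of TH17 genes, had 2.16, 1.85 and 2.25 in cKO and 1.42, 1.06 and 0.48 in control (1.10, SE 0.26, adjusted p = 0.122, limma, and 0.66 within the shared slide), and it was among the 3 genes most like the brighter Socs3 probe. Tbx21, the TH1 factor, had 2.87, 3.07 and 2.84 in cKO and 2.82, 2.43 and 1.77 in control, all cKO above all control by a narrow margin at control 1 (0.58, adjusted p = 0.246, limma), so that the difference was 0.10 within the shared slide and 0.30 without control 3. Foxp3 was the gene lower at that threshold, with the values given above. Stat5b, which carries the IL-2 signal, overlapped, with a log2 fold change of 0.25 that was 0.10 without cKO 3.

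**Figure D5:**
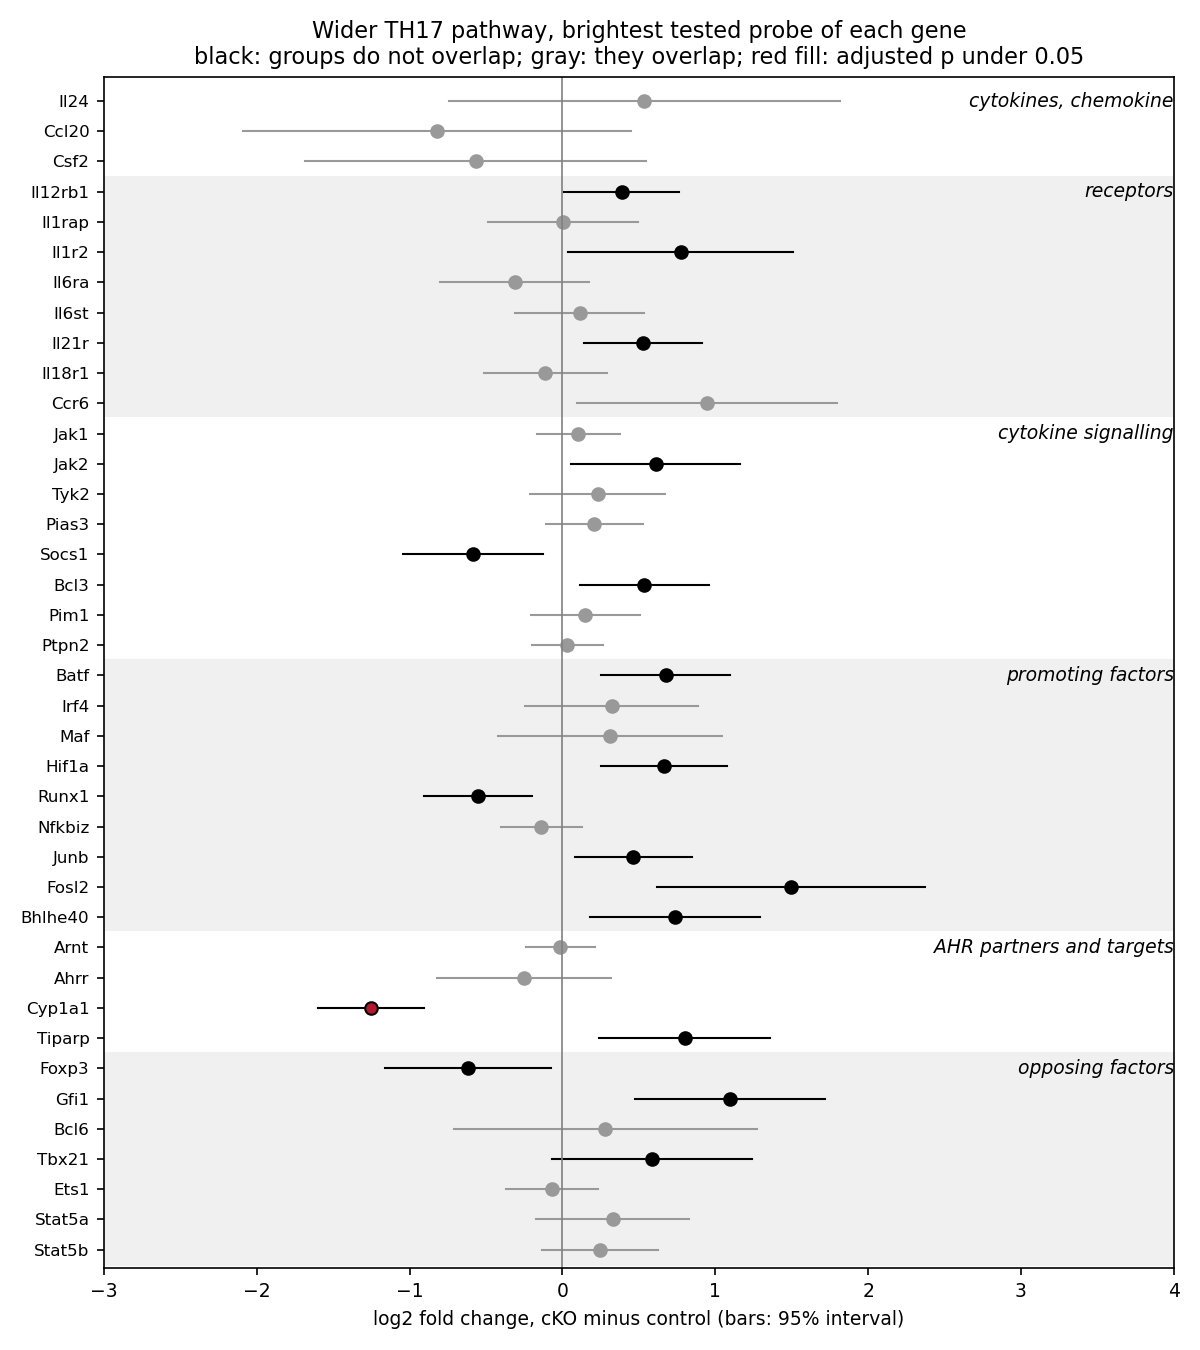
Log2 fold change of cKO over control with its 95% interval (horizontal axis) for the 39 tested genes of the wider TH17 pathway, grouped by role. Points are black where the 3 cKO and 3 control arrays do not overlap and gray where they do. Cyp1a1, filled red, has an adjusted p of 0.0495 (limma) and was not well above background in cKO. Its point is the fitted change. That is larger than the 1.73-fold found with each cKO array at its lowest signal called well above background.

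No marker of another cell type passed an adjusted p of 0.05, while some had all cKO above or below all control arrays, as 15.9% and 20.7% of all tested probes did. Of 5 epithelial markers, 3 were tested, Epcam, Krt18 and Cdh1, and the summed brightness of the list was 1594, 1404 and 1945 in cKO and 1014, 886 and 981 in control, with Cdh1 the brightest gene. Cdh1 had a log2 fold change of 1.01 (adjusted p = 0.143, limma), and Krt8 was above background on no array. Hbb-b1, a globin gene and the brightest of the 4 erythroid markers, had -1.11, -1.25 and -0.02 in cKO and -2.35, -2.06 and -4.27 in control, all cKO above all control. The other globin gene, Hba-a1, had lower values in cKO, with -5.14, -5.11 and -6.57 in cKO and -4.07, -3.80 and -3.32 in control. It was above background on 2 control arrays and no cKO array, so no fold change is given, and Alas2 was above background on no array. The fold change of Hbb-b1 was 2.10 on the log2 scale (adjusted p = 0.163, limma) and 1.41 without control 3. The summed erythroid brightness was 558, 503 and 1033 in cKO and 335, 415 and 209 in control. Their part in the values of Rora, Ahr, Stat3 and Socs3 was not tested.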

How the data were processed

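The authors labelled RNA with Cy3, hybridized it to Agilent mouse arrays of 1 colour, 3 from cKO and 3 from control mice, and extracted each spot. The deposited spot intensity is linear and background-subtracted by Agilent Feature Extraction, version 10.7.3.1 in the file headers and 9.1 in the submitters' processing notes. The authors also deposited a table of log2 values with a median of 6.15 on each array, used as an alternative. Each of its columns matched 1 sample.

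The log2 intensity minus the array's 75th percentile over spots that are not controls was averaged over the spots of a probe, without 123 to 140 outlier spots per array. The genotypes were compared in limma 3.58.1 (R 4.3.3) by lmFit and eBayes over all 22281 probes well above background on at least 3 arrays, with Benjamini-Hochberg adjustment; of these, 19 lack a value on an array. The steps were tested on simulated data. For 1 value, 3 arrays against 3 allow no 2-sided exact permutation p below 0.1. The number of arrays limits the precision.

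The members and lists were chosen with earlier results of these data known, and some genes of the lists are not reported here and were left out of them afterwards, without regard to their values. Every member probe is named. In the wider list the named genes are, for each role, the 3 largest changes, the brightest gene and any gene past the adjusted threshold, each at its brightest tested probe. Il12rb1, Il1rap, Il6ra, Il6st, Il22, Runx1, Cyp1b1, Nqo1 and the markers were named outside that rule after their values were seen. Of the 13 member probes, 10 carry a RefSeq transcript, all matched to RefSeq (GRCm38.p6) under the same symbol. Alternatives were normexp (offset 50) with quantile or 75th-percentile scaling, quantile scaling, the median as scaling point, the authors' table, no filter, detection on all arrays, the methods' t-test, trend and robust eBayes, array weights, the slide as a term, a replicate block, each array left out, an adjusted p of 0.10, the mean over a gene's tested probes and, added after seeing the data, the percentile over probes. Tables used Python 3.11.15, pandas 2.3.3, numpy 2.4.6, scipy 1.17.1 and matplotlib 3.10.9.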

Additional observations from a re-analysis of the deposited data

How the results depend on the processing

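The number of tested probes with an adjusted p under 0.05, 54, was 112 with normexp and quantile scaling, 26 with quantile scaling, 28 in the authors' table, 174 with detection on all arrays, 105 with trend and robust eBayes, 2205 with array weights, 457 at an adjusted p of 0.10 and 29 with the percentile over probes. It was 0 without a filter (4705 at an unadjusted p of 0.05), with the slide as a term (1646), with normexp plus 75th-percentile scaling (1659) and with the methods' t-test (4018), and 0 to 1 with an array left out (2865 to 6465). With the replicate block it was 0 (3627), and the numbers did not pair the samples, since same-numbered deviations correlated at -0.14, 0.01 and -0.19. Among the member probes the count stayed at 0 except with array weights, where it was 1, the brighter Stat3 probe (log2 fold change 0.52, adjusted p = 0.0329, limma); those weights ran from 0.173 for cKO 3 to 5.05 for control 2. With an array left out, the count of member probes was 0 to 0. The methods' t-test gave 3 member probes higher at an unadjusted p of 0.05, and 0 after adjustment.

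The fold changes of Rora, Ahr, Stat3 and the first Socs3 probe kept their direction under every alternative that gave a value. For several alternatives this was fixed in advance. The filters, the t-test, trend and robust eBayes and the replicate block left these fold changes as they were. Where every cKO array exceeded every control array, leaving out an array could not reverse the direction. Some fold changes moved by over 1.5 times under other alternatives. The brighter Stat3 probe, 0.58, was 0.32 and the second Rora probe, 0.68, was 0.44 with normexp and the 75th percentile. The third Rora probe, 1.07, was 0.50 and the second Stat3 probe, 0.43, was 0.28 with normexp and quantile scaling. The first Socs3 probe, 1.04, was 0.55 with the slide as a term and 0.52 as the mean over the gene's probes. Without cKO 3 the second Rora probe was 0.34 and the second Stat3 probe 0.23. Il17f was reversed with normexp and the 75th percentile (0.10), array weights (0.16) and the slide as a term (0.34), and ran from -1.04 to 0.13 with an array left out. The second Socs3 probe was reversed with normexp and quantile scaling (-0.053) and normexp and the 75th percentile (-0.26), and ran from -0.13 to 0.13 with an array left out. With the slide as a term it was 0.24. In the wider list, Il24 (-0.25) and Il18r1 (0.17) were reversed with the slide as a term, and Jak1 (-0.16), Ahrr (0.22) and Cyp1a1 (0.26) with normexp and the 75th percentile, which moved the median of all tested probes from -0.04 to 0.11. Other wider genes kept their direction but moved by over 1.5 times. With normexp and the 75th percentile Stat5b was 0.01, Junb 0.17, Bcl3 and Tbx21 0.30 and Batf 0.43. Fosl2 was 0.92 with normexp and quantile scaling, and with array weights Foxp3 was -0.36 and Ccl20 -0.30. Cyp1a1 was no longer called under 17 of 19 alternatives, with adjusted p from 0.0223 to 0.813, and kept its call with array weights and the mean over a gene's probes. Its fitted change stayed between -1.36 and -1.04 except with normexp and quantile scaling (-0.46) and the reversed value above. In the wider list 13 genes were higher and 4 lower at an unadjusted p of 0.05; these counts were 4 and 1 with normexp and the 75th percentile. The cause was not tested. For the 4 undetected members the signal over background sets the limit, and no alternative was read for them.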
